A study of Mus musculus with 6 samples.

Results

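The genes described here are the 9 that encode Merlin, its closest relatives at the cell membrane and several of their membrane partners: Nf2, Ezr, Rdx, Msn, Slc9a3r1, Slc9a3r2, Cd44, Epb41l2 and Epb41l3. They were taken by symbol from a table of 26231 genes, and all 9 were found and passed the filter on low values. The study sequenced RNA from immortalized mouse embryonic fibroblasts (MEF) to ask what the loss of Merlin changes. There were 6 libraries, 3 labelled WT (control), which the study calls MEF Nf2fl/fl, and 3 labelled Nf2 KO, which it calls MEF Nf2-/-. Both lines came from FVB embryos of about 14 days by the labels (the study's methods give a slightly earlier day) that carried floxed Nf2 alleles, and both were immortalized with SV40 large T antigen. The control line received a lentivirus with GFP and the other a lentivirus with GFP and Cre recombinase, driven by the CMV promoter. The study's methods add the mark puro and do not describe a selection with puromycin. All cells spent 24 h in serum-free medium before RNA was extracted. One line of each kind was used, and nothing says that the 3 libraries of a line came from separate cultures, so p-values measure only the spread between these libraries, which may be technical.

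Merlin, the product of Nf2, is a tumour suppressor with an amino-terminal FERM domain, a fold that docks proteins onto the cytoplasmic tails of membrane proteins and onto membrane phosphoinositides. Ezrin, radixin and moesin (the ERM proteins) share that domain and end in an actin-binding tail, so that they tie the cortical actin cytoskeleton to receptors such as CD44. Both kinds of protein fold closed through contact of head and tail, and kinases and phosphatases switch them between closed and open forms, which RNA levels do not show.

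Values are RPKM, reads scaled to exon length and to library size, so levels can be compared roughly between genes. The length is that of all annotated exons of a gene, and which of its transcripts were present was not measured. Depth, inferred from the steps of the values, ran from 13455290 to 73045308 reads, and the libraries numbered 3, which the labels mark 2018, were the deepest. The member with the fewest reads, Slc9a3r2, had 483 in its lowest library, a counting error of 4.55%, and Msn had at least 15914, a counting error of 0.793%. Sequence shared with other genes was at most 2.8% of the 31-base stretches of any member, the highest share being that of Slc9a3r1. Differences are log2(RPKM + 1) of the libraries labelled Nf2 KO minus MEF Nf2fl/fl. The test was limma over 11067 genes, run without and with a block for the replicate number, at a Benjamini-Hochberg adjusted p of 0.05. Libraries of the same number deviated together from their line's mean, most clearly those numbered 2 (correlation 0.819). Those numbered 1 and 3 correlated 0.552 and 0.516 within their number, but also 0.322 and 0.493 with each other across the lines. The blocked value stands beside the other where it changes the call. In bulk RNA, fewer cells of a type and less RNA per cell cannot be told apart.

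Nf2 was the gene targeted in the second line, and its RNA was not lower there. It measured 14.3, 13.7 and 13.1 in libraries 1 to 3 of MEF Nf2fl/fl, against 15.4, 12.9 and 13.95 in those labelled Nf2 KO (RPKM). The lines overlapped, and the numbers go in both directions within the pairs. The means were 13.7 ± 0.583 and 14.1 ± 1.27 RPKM (SD, n = 3), a difference of 0.03 with a 95% interval of -0.20 to 0.26 (limma adjusted p = 0.987). The table gives 1 value per gene, which does not separate transcripts that lack the floxed part. The level therefore neither bears out the label nor goes against it, and does not show whether the deletion took place. For that reason the second line is called by its label throughout. Nf2 lies on chromosome 11 (4765845-4849536, minus strand, GRCm38).

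**Figure D1:**
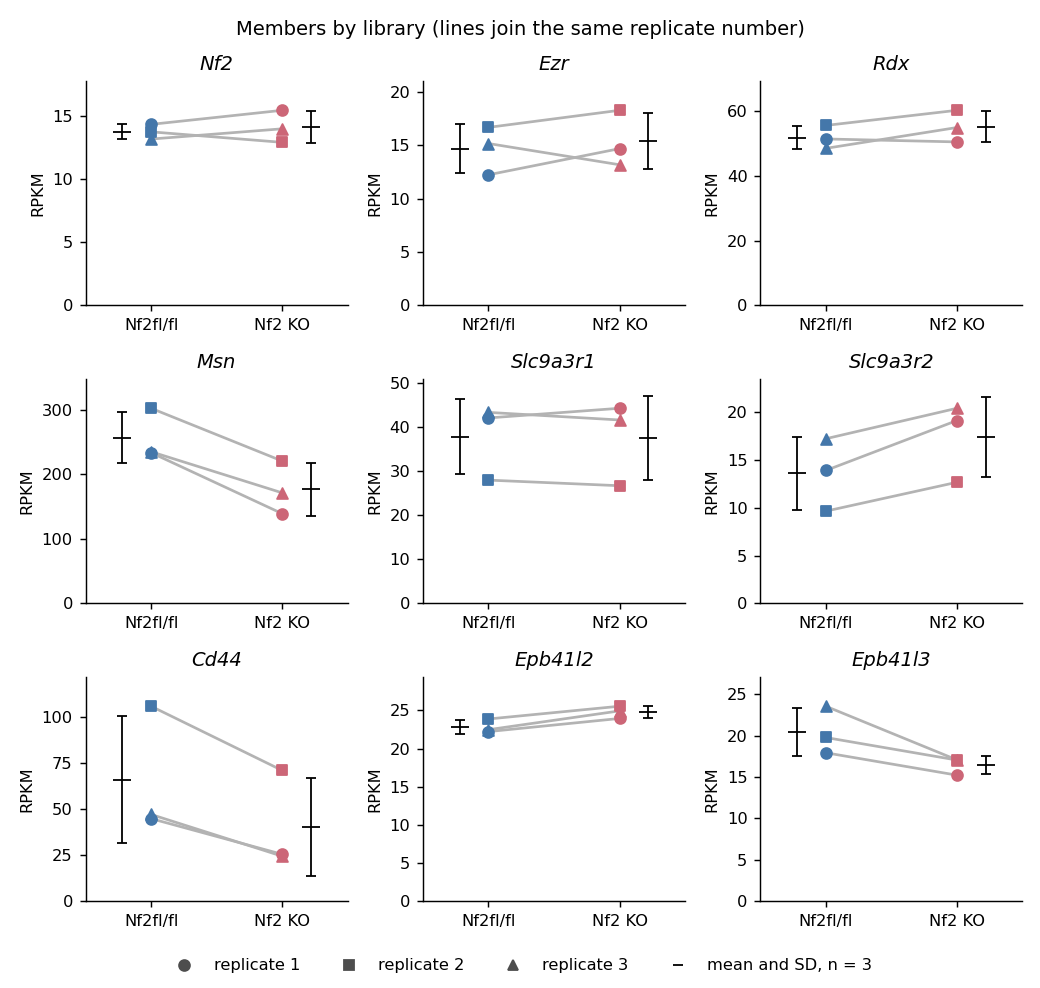
RPKM of the 9 genes in each of the 6 libraries, with MEF Nf2fl/fl on the left and the libraries labelled Nf2 KO on the right of each panel; grey lines join libraries of the same replicate number, and the crosses are the mean and SD (n = 3). The 3 grey lines of Msn and of Cd44 all go down and those of Slc9a3r2 all go up, while replicate 2 of Cd44 stands far above the other libraries in both lines.

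Moesin, the ERM protein that fibroblasts and blood cells make most of, was the most abundant of the 9 genes and lower in the libraries labelled Nf2 KO. Msn measured 233.5, 302.3 and 235.0 in libraries 1 to 3 of MEF Nf2fl/fl, against 139.1, 220.6 and 171.3 in those labelled Nf2 KO (RPKM). All 3 labelled libraries lay below all 3 controls. The means were 257 ± 39.3 and 177 ± 41.0 RPKM (SD, n = 3), a difference of -0.55 (SE 0.19), and within replicate numbers the labelled line held 59.6%, 73.0% and 72.9% of its control. The limma adjusted p was 0.381 without the block (unadjusted p = 0.0270) and 0.0295 with it. The blocked call was lost without any 1 replicate number, with limma adjusted p of 0.0597, 0.113 and 0.0749 without numbers 1, 2 and 3. Msn lies on chromosome X (96096042-96168552, plus strand).

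Radixin, the main ERM protein of liver cells, and ezrin, the main ERM protein of epithelia, gave no difference past the threshold. Rdx measured 51.3, 55.4 and 48.4 in libraries 1 to 3 of MEF Nf2fl/fl, against 50.4, 60.1 and 54.8 in those labelled Nf2 KO (RPKM). Ezr measured 12.2, 16.7 and 15.2 in libraries 1 to 3 of MEF Nf2fl/fl, against 14.7, 18.3 and 13.2 in those labelled Nf2 KO (RPKM). The lines overlapped for both genes, and replicate 2 was the highest library of its line for both. The differences were 0.09 for Rdx (95% interval -0.16 to 0.34, limma adjusted p = 0.939) and 0.06 for Ezr (95% interval -0.32 to 0.44, limma adjusted p = 0.985). With 1 library left out, that of Rdx ran from 0.025 without labelled library 2 to 0.15 without labelled library 1. Rdx lies on chromosome 9 (52047173-52088735, plus strand) and Ezr on chromosome 17 (6738041-6782784, minus strand). The 3 proteins are close relatives: as predicted from the longest open reading frames of the annotated transcripts, radixin and moesin shared 81.8% of aligned residues, ezrin and radixin 76.3%, and ezrin and moesin 73.8%, while Merlin shared 46.4% to 47.4% with each.

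Msn made up most of the ERM RNA in every library. Its share of the summed RPKM of Ezr, Rdx and Msn was 78.6%, 80.7% and 78.7% in MEF Nf2fl/fl and 68.1%, 73.8% and 71.6% in the libraries labelled Nf2 KO. The shares of Rdx were 17.3%, 14.8% and 16.2% in the controls and 24.7%, 20.1% and 22.9% in the labelled libraries, and those of Ezr 4.12%, 4.46% and 5.08% against 7.19%, 6.11% and 5.51%. The lines did not overlap for any of the 3 shares, which sum to the whole and so are not separate observations. The summed level was 297, 374 and 299 RPKM in the controls and 204, 299 and 239 RPKM in the labelled libraries, or 20.8, 27.3 and 22.7 times the Nf2 level against 13.25, 23.2 and 17.15 times.

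**Figure D2:**
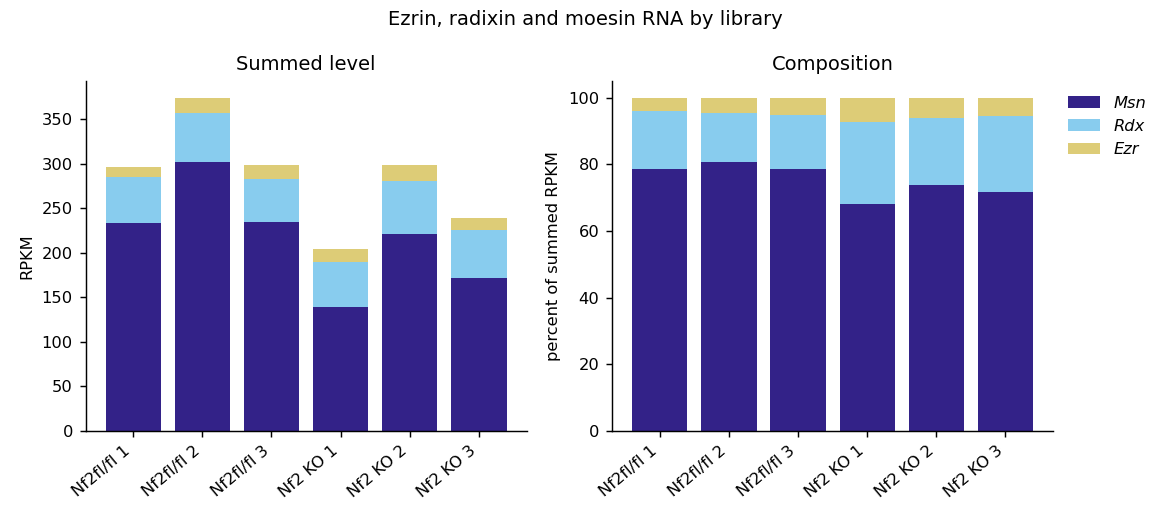
Summed RPKM of Ezr, Rdx and Msn in each library (left, linear axis from 0) and the percent of that sum from each gene (right). Msn takes 78.6% to 80.7% of the sum in MEF Nf2fl/fl and 68.1% to 73.8% in the libraries labelled Nf2 KO.

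CD44 is the main receptor for hyaluronan and the membrane protein through which Merlin is known to signal contact between cells, and its RNA varied most among the 9 genes, with a coefficient of variation of 58.2% over the 6 libraries. Cd44 measured 44.8, 105.6 and 47.1 in libraries 1 to 3 of MEF Nf2fl/fl, against 25.5, 70.9 and 24.45 in those labelled Nf2 KO (RPKM). Replicate 2 was high in both lines, so that the labelled library 2 exceeded control libraries 1 and 3 and the lines overlapped. The labelled libraries held 56.9%, 67.1% and 52.0% of their controls by number, a difference of -0.76. Without the block the SE was 0.49 (limma adjusted p = 0.785), and with it 0.087 (limma adjusted p = 0.0105). The blocked adjusted p (limma) was 0.0190 without replicate 2 and 0.0309 without replicate 3, but 0.0535 without replicate 1. Without replicate 2 and with no block, the difference was -0.85 (limma adjusted p = 0.00827), and without replicate 1 or 3 the unblocked adjusted p was 1.00. With 1 library left out and no block, the difference ran from -0.36 without control library 2 to -1.25 without labelled library 2 (limma adjusted p = 0.817 and 0.284). Cd44 lies on chromosome 2 (102811141-102901665, minus strand).

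The scaffolds NHERF1 and NHERF2, products of Slc9a3r1 and Slc9a3r2, join PDZ-binding membrane proteins to the FERM domains of ERM proteins and Merlin. Slc9a3r1 measured 42.0, 27.9 and 43.2 in libraries 1 to 3 of MEF Nf2fl/fl, against 44.2, 26.6 and 41.5 in those labelled Nf2 KO (RPKM). Slc9a3r2 measured 13.9, 9.63 and 17.2 in libraries 1 to 3 of MEF Nf2fl/fl, against 19.1, 12.6 and 20.4 in those labelled Nf2 KO (RPKM). Replicate 2 was the lowest library of both lines for both genes, and the lines overlapped. Slc9a3r1 differed by -0.02 (95% interval -0.60 to 0.57 without the block and -0.18 to 0.15 with it). Slc9a3r2 held 137.6%, 131.3% and 118.5% of its controls in the labelled libraries, a difference of 0.34 (SE 0.25, limma adjusted p = 0.823). With 1 library left out and no block, that difference ran from 0.13 without control library 2 to 0.54 without labelled library 2. With the block its SE was 0.068 and it rose (limma adjusted p = 0.0424). That call was lost without any replicate number, with limma adjusted p of 0.150, 0.174 and 0.0749 without numbers 1, 2 and 3. It was also lost under quantile normalization (adjusted p = 0.0511) and without limma's trend and robust settings (adjusted p = 0.0524). The ratio of Slc9a3r1 to Slc9a3r2 was 3.03, 2.90 and 2.52 in the controls and 2.315, 2.11 and 2.04 in the labelled libraries. The proteins shared 54.4% of aligned residues. Slc9a3r1 lies on chromosome 11 (115163341-115181181, plus strand) and Slc9a3r2 on chromosome 17 (24639286-24650327, minus strand).

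Proteins 4.1G and 4.1B, products of Epb41l2 and Epb41l3, are FERM proteins that join spectrin and actin to membrane proteins, and 4.1B, like Merlin, is a candidate tumour suppressor of meningioma. Epb41l2 measured 22.2, 23.9 and 22.5 in libraries 1 to 3 of MEF Nf2fl/fl, against 23.9, 25.5 and 24.9 in those labelled Nf2 KO (RPKM), each of which lay above every control. Epb41l3 measured 17.9, 19.8 and 23.5 in libraries 1 to 3 of MEF Nf2fl/fl, against 15.2, 17.0 and 17.1 in those labelled Nf2 KO (RPKM), each of which lay below every control. Neither passed the threshold. Epb41l2 differed by 0.11 (95% interval -0.08 to 0.31, limma adjusted p = 0.824, and 0.329 with the block). Epb41l3 differed by -0.29 (SE 0.12, limma adjusted p = 0.499, unadjusted p = 0.0491, and adjusted p = 0.0820 with the block), and by -0.19 without control library 3 and -0.37 without control library 1. The ratio of Epb41l2 to Epb41l3 was 1.24, 1.21 and 0.955 in the controls and 1.57, 1.499 and 1.46 in the labelled libraries. The proteins shared 56.4% of aligned residues. Epb41l2 lies on chromosome 10 (25359798-25523519, plus strand) and Epb41l3 on chromosome 17 (69075683-69289989, plus strand).

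In MEF Nf2fl/fl the order of the mean levels was Msn, Cd44 (65.8 RPKM), Rdx (51.7 RPKM), Slc9a3r1 (37.7 RPKM), Epb41l2 (22.85 RPKM), Epb41l3 (20.4 RPKM), Ezr (14.7 RPKM), Nf2 (13.7 RPKM) and Slc9a3r2 (13.6 RPKM). The ranges of Cd44 and Rdx overlapped, as did those of Epb41l2 and Epb41l3 and those of Ezr, Nf2 and Slc9a3r2. Every control library held more Msn than Cd44, more Rdx than Slc9a3r1 and more Epb41l3 than Ezr.

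Without the block, 0 of the 9 genes passed the threshold (2 at an unadjusted p under 0.05, Msn and Epb41l3, and by limma's voom on recovered reads 0, with 2 unadjusted). Of all 11067 genes tested, 1.06% passed in either direction, and 9.91% had an unadjusted p under 0.05. With the block, 2 of 9 passed lower (Msn and Cd44, against 4.54% of all genes tested) and 1 passed higher (Slc9a3r2, against 2.99%). Without overlap between the lines, 2 genes were lower (Msn and Epb41l3, against 7.52% of all genes) and 1 was higher (Epb41l2, against 7.6%). Within all 3 replicate numbers, 5 of 9 differed in 1 direction, lower for Msn, Cd44 and Epb41l3 and higher for Slc9a3r2 and Epb41l2, where 46.9% of all genes did. The median difference of the 9 genes was 0.03, and of all genes -0.01, and the median size of the difference was 0.11 and 0.10.

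**Figure D3:**
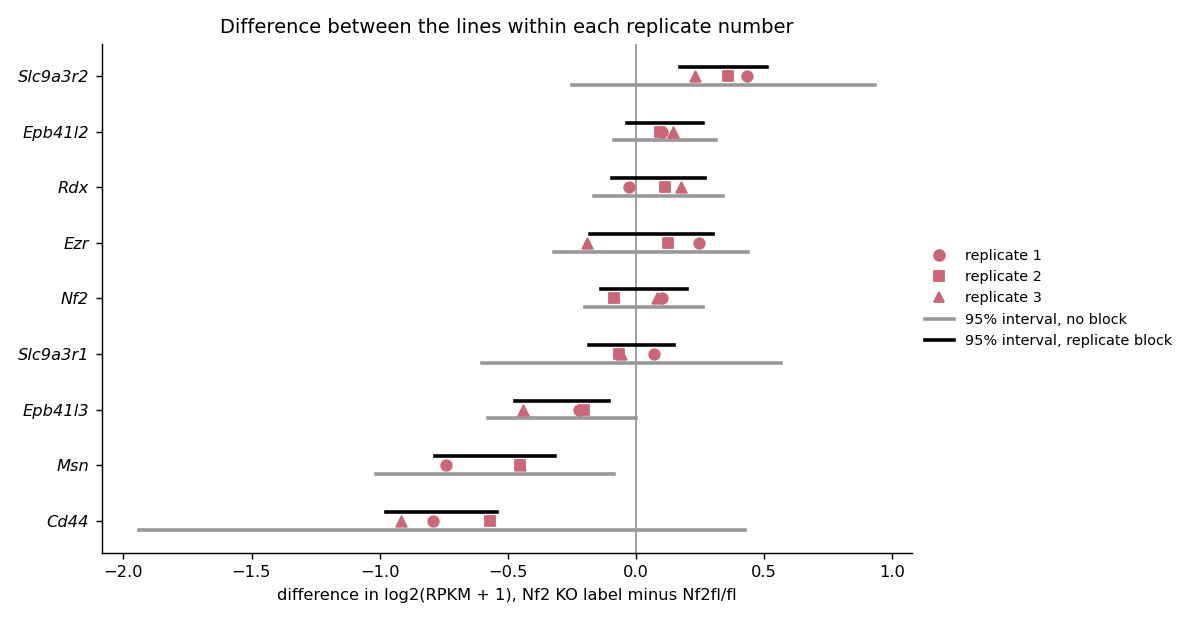
Difference in log2(RPKM + 1) between the libraries labelled Nf2 KO and MEF Nf2fl/fl within each replicate number (markers), with the 95% interval of the mean difference from limma without (grey) and with (black) the replicate block. The black intervals of Msn, Cd44, Slc9a3r2 and Epb41l3 lie wholly on one side of 0, and the grey interval of Cd44 runs from -1.94 to 0.42.

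For 6 of 9 genes (Nf2, Ezr, Rdx, Cd44 and both NHERF genes), the libraries numbered 2 differed from the other 4 by more than the lines did, where this held for 67.7% of all genes. A test of the replicate number in the blocked fit passed for 3 of 9 (Cd44, Slc9a3r1 and Slc9a3r2, with limma adjusted p of 0.00548, 0.0126 and 0.0127), where 21.2% of all genes passed. With no filter on low values none of the 3 passed (0 of 9 by limma), and with a filter of 5 RPKM, median centring, no trend and robust settings or voom 4 of 9 did. Mean Cd44 was 88.2 RPKM in the libraries numbered 2 and 35.4 RPKM in the other 4, a difference of 1.33. Mean Slc9a3r1 was 27.3 RPKM in the libraries numbered 2 and 42.7 RPKM in the others, and Slc9a3r2 11.1 and 17.6 RPKM. Both libraries numbered 2 lay outside the range of the other 4 for 5 of 9 genes, above it for Ezr, Rdx and Cd44 and below it for both NHERF genes, where 46.6% of all genes did so. What the replicate number stands for was not given.

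**Figure D4:**
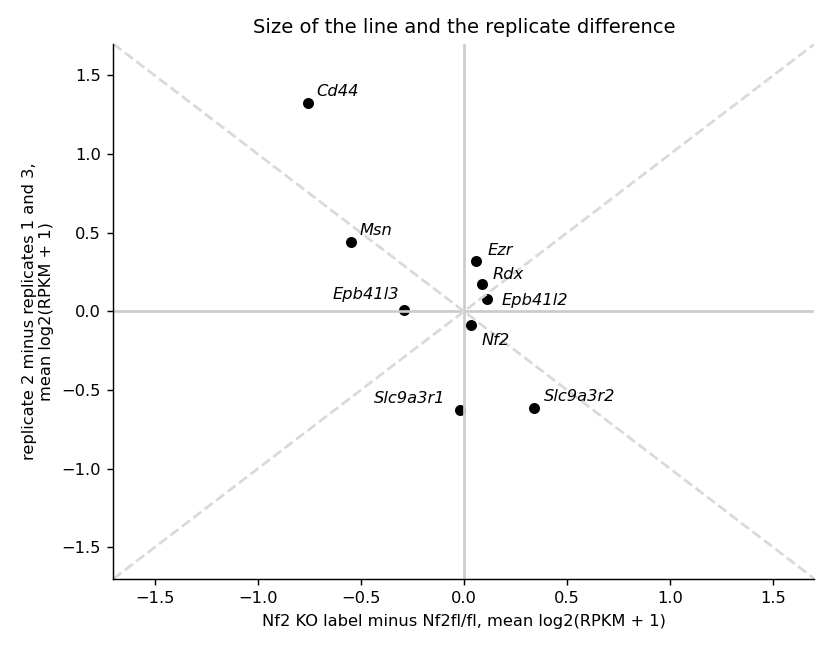
For each of the 9 genes, the difference between the lines (horizontal) and between the libraries numbered 2 and the other 4 (vertical), both in mean log2(RPKM + 1); on the dashed lines both have the same size. Cd44, at -0.76 and 1.33, both NHERF genes, Ezr, Rdx and Nf2 lie farther from 0 on the vertical than on the horizontal axis, and Msn, Epb41l2 and Epb41l3 do not.

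The upstream sequences of genes whose values went together are shown so that they can be compared: Msn and Cd44, the members that were lower past the threshold with the block, and the NHERF genes, which were low in both libraries numbered 2. All 9 genes matched RefSeq entries. The windows are RefSeq stretches of 300 bases, from 250 before to 50 after the annotated start in GRCm38.p6, read on the gene's strand from 5′ to 3′. For Slc9a3r2, which has several starts, the outermost is given. Capitals mark matches on either strand to the GC box GGGCGG.
Msn, chrX:96095795-96096094, plus strand: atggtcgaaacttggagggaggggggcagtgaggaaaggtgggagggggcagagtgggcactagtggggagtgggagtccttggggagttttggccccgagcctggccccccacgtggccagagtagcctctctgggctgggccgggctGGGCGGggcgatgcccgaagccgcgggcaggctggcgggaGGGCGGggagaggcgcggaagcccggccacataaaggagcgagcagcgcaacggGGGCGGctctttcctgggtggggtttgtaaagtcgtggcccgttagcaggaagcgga
Cd44, chr2:102901616-102901915, minus strand: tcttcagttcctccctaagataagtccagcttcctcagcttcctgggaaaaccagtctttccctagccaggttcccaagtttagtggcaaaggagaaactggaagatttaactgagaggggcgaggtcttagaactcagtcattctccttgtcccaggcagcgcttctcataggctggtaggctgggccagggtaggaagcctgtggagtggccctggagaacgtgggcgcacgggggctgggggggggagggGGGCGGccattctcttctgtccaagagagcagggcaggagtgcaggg
Slc9a3r1, chr11:115163091-115163390, plus strand: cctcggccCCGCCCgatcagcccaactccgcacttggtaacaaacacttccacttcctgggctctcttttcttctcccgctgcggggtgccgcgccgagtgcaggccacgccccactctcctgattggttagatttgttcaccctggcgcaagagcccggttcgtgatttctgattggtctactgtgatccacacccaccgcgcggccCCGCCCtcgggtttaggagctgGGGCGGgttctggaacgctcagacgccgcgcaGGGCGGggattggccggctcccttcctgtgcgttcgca
Slc9a3r2, chr17:24650256-24650555, minus strand: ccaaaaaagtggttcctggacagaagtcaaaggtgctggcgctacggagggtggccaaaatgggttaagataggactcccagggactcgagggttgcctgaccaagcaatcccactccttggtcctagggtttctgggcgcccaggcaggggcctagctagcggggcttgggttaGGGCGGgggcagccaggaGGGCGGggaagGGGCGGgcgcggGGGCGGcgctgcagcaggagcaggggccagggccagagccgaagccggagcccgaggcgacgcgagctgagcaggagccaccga
Msn had 3 matches, Cd44 had 1, Slc9a3r1 had 4 and Slc9a3r2 had 4. The GC box was not particular to these genes: it was in 9 of the 14 windows of the 9 genes, and in at least 1 window of 8 of 9 genes, all but Epb41l2. GGGCGG occurs in 35.7% of 32851 RefSeq promoters of this length. The TEAD motif GGAATG, present in 14.7% of promoters, matched none of the 14 windows of the 9 genes. The AP-1 motif TGACTCA, which reads TGAGTCA on the other strand and so is counted once per position, occurs in 5.2% of promoters and matched in 1 window of Ezr and in the inner window of Slc9a3r2. A match is a description of the letters, not of binding.

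Genes related to the 9 were taken from 5 lists of 109 genes in all, of which 107 were in the table and 73 passed the filter. Without the block, 1 of 73 was higher and 2 were lower past the threshold, where 1.06% of all genes tested passed in either direction. With the block 5 of 73 were higher and 9 lower, where 2.99% and 4.54% of all genes were. The lines did not overlap, lower, for 10 of 73 and, higher, for 7, where 7.52% and 7.6% of all genes did not. The median difference was 0.0015 and its median size 0.14. The 3 genes called without the block are a FERM protein, a kinase and a scaffold. Epb41l1, the 4.1 protein best known from neurons, measured 10.5, 9.71 and 9.16 in libraries 1 to 3 of MEF Nf2fl/fl, against 5.72, 5.50 and 5.70 in those labelled Nf2 KO (RPKM) (difference -0.70, limma adjusted p = 0.0275). Pak1, which phosphorylates Merlin, measured 10.2, 8.71 and 11.7 RPKM against 4.19, 3.92 and 5.51 RPKM (difference -1.02, limma adjusted p = 0.0399). Dlg1, a scaffold that binds protein 4.1, measured 9.91, 11.1 and 10.2 RPKM against 16.9, 15.1 and 17.3 RPKM (difference 0.61, limma adjusted p = 0.0429). The lines did not overlap for any of the 3. With any 1 library other than control library 2 left out, 0 of the related genes passed without the block, and without control library 2 there was 1.

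By list, the members of the FERM family other than the 9 genes (21 tested) had 1 call lower without the block and 0 higher and 3 lower with it, which added Ptpn13, a phosphatase with a FERM domain (mean 10.1 and 5.87 RPKM), and the unconventional myosin Myo7a (1.59 and 0.839 RPKM). The membrane ligands of ERM proteins (7 tested) had 0 calls without the block (2 unadjusted, where 9.91% of all genes were) and 1 higher and 2 lower with it. Podoplanin, Pdpn, a glycoprotein that binds ERM proteins, measured 13.2, 5.02 and 12.6 in libraries 1 to 3 of MEF Nf2fl/fl, against 2.59, 0.970 and 3.34 in those labelled Nf2 KO (RPKM) (difference -1.75, limma adjusted p = 0.166, and 0.00221 with the block). Layn, a hyaluronan receptor, passed lower with the block (mean 8.43 and 5.55 RPKM), and Mcam, an adhesion molecule, passed higher (mean 10.96 and 20.65 RPKM). The lines overlapped for both, and without the block the limma adjusted p was 0.629 for Layn and 0.471 for Mcam. The kinases and phosphatases (20 tested) had 1 call lower without the block and 4 lower with it, which added the ERM kinases Stk10 and Slk and Pip5k1c, which makes the phosphoinositide that opens ERM proteins. The binding partners of Merlin and protein 4.1 (18 tested) had 1 call higher without the block and 2 with it, the other being the scaffold Magi1. The hyaluronan genes (7 tested) had 0 calls without the block (2 unadjusted, against the same 9.91%) and 2 higher with it, Cemip2, which degrades hyaluronan, and Tnfaip6, which binds it, at 1.95 and 3.76 RPKM. The 2 unadjusted were Tnfaip6 and Cemip, another gene of hyaluronan breakdown, which went the other way: 2.97, 4.90 and 4.54 RPKM in the controls against 2.40, 1.86 and 1.99 RPKM in the labelled libraries, without overlap (difference -0.72, limma adjusted p = 0.166, and 0.0679 with the block). The most abundant gene of each list was Tln1, Sdc2, Arhgdia, Itgb1 and Hmmr, none of which passed in either fit.

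**Figure D5:**
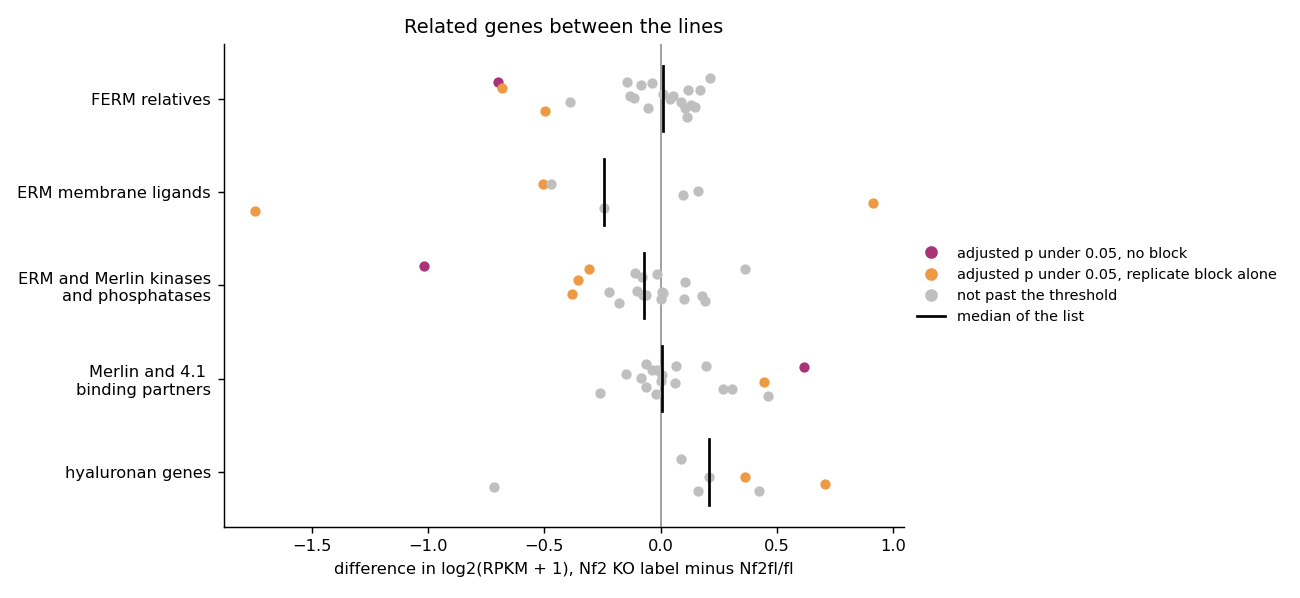
Difference in log2(RPKM + 1) between the lines for every tested gene of the 5 related lists (points), colored by whether limma's adjusted p was under 0.05 without the block or with it alone; black bars are list medians. The points past the threshold lie on both sides of 0, from Pdpn at -1.75 to Mcam at 0.91.

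Over the 6 libraries, the gene whose centred log2(RPKM + 1) profile lay nearest to that of each member was found among the 11067 genes, by the root mean square (RMS) difference, as a description. For Nf2 it was Herc1 (RMS 0.0178), for Ezr Slc9a8 (0.0524), for Rdx Tra2b (0.0213), for Msn Gm38158 (0.0554), for Slc9a3r1 Gtpbp2 (0.0206) and for Slc9a3r2 Hacd4 (0.0422). Gm38158 ran from 0.326 to 2.18 RPKM and Hacd4 from 0.503 to 2.02 RPKM. At such low levels the added 1 shrinks differences in log2(RPKM + 1). For Epb41l2 it was Tfdp1 (0.0127) and for Epb41l3 Clic1 (0.0368). For Cd44, whose own RMS spread of 0.735 was the largest of the 9 (0.0696 to 0.356 for the others), it was Spry2 (0.126), with 3.99, 13.6 and 4.51 in MEF Nf2fl/fl, against 2.52, 7.73 and 2.45 in those labelled Nf2 KO (RPKM). Spry2 was, like Cd44, highest in replicate 2 of both lines.

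Most fibroblast markers were present in both lines, and Dcn, which encodes decorin, was close to absent from the libraries labelled Nf2 KO. All 12 on the list passed the filter, which asks for 3 of the 6 libraries, and 10 of 12 reached 1 RPKM in every labelled library. Their summed level ran from 2501 to 3320 RPKM in MEF Nf2fl/fl and from 1729 to 2276 RPKM in the libraries labelled Nf2 KO. The highest, Vim, which encodes vimentin, ran from 772 to 882 and from 536 to 753 RPKM. Of the 12 markers, 4 passed lower without the block (Fn1, S100a4, Pdgfra and Dcn, against 0.578% of all genes) and 6 with it (Col3a1 and Thy1 too, against 4.54%). Of the 12, 9 were lower in all 3 replicate numbers, where 24.6% of all genes were. The limma adjusted p without the block was 0.0390 for Fn1 and 0.0329 for S100a4. Pdgfrb, Fbn1 and Postn were not lower in every number, with differences of 0.02, -0.09 and -0.48. Dcn measured 2.57, 1.60 and 4.01 RPKM in the controls and 0.133, 0.027 and 0.1125 RPKM in the labelled libraries, so it entered the test through the controls alone and its call, counted in both, supports nothing. Pdgfra measured 12.3, 5.23 and 11.7 RPKM in the controls against 1.42, 0.657 and 0.962 RPKM, the last 2 below the filter. It too met the filter only with the controls, so its call supports nothing either. Apart from Dcn and Pdgfra, the calls were Fn1 and S100a4 without the block, and Col3a1 and Thy1 as well with it. Msn and Cd44 are lower in the same libraries, and the part of this shift in their result was not tested. Of the other lists, 9 of 10 epithelial markers, 5 of 6 endothelial, 6 of 7 macrophage and 4 of 4 skeletal muscle markers analysed were under 1 RPKM in all libraries. The exceptions were Krt19 (21.05 to 39.5 RPKM in MEF Nf2fl/fl and 10.4 to 27.6 RPKM in the labelled libraries), Kdr and Cd68. Of the neural markers, 4 of 6 were under 1 RPKM, and Map2 rose: it ran between 2.65 and 4.59 RPKM in the controls and between 8.08 and 10.85 RPKM in the labelled libraries. Tubb3, the other neural marker above the filter, went the other way without passing, at 0.954, 2.315 and 1.76 RPKM in the controls and 0.917, 0.638 and 1.31 RPKM in the labelled libraries.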

How the data were processed

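RNA from 6 libraries of 2 immortalized MEF lines was measured. The authors deposited 1 table of RPKM values per gene, 26231 genes by 6 libraries, made by a sequencing company. The submitters' processing notes name the build mm10, and the aligner, counter and whether reads or pairs were counted are not given in the sources used here. The unit was inferred from the values. Of the genes, 25986 could be given an exon length from GENCODE vM21, build GRCm38; 83.4% to 85.3% of values up to 20 reads were whole multiples of 1 read (tolerance 0.05 reads, 10% by chance), which gave the depths. Shallower libraries have larger counting error for low genes.

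Values were set to log2(RPKM + 1), and genes reaching 1 RPKM in 3 or more libraries were kept. The two-sided test was limma 3.58.1 in R 4.3.3, using its trend and robust options, and p-values were adjusted by Benjamini-Hochberg at 0.05. Libraries were grouped by their labels. The fit had no covariate, with the replicate number as a block beside it: deviations from the line means correlated 0.552, 0.819 and 0.516 between libraries of the same number, and -0.681 to 0.493 between those of different numbers. Control library 1 correlated 0.322 with labelled library 3, and control library 3 correlated 0.493 with labelled library 1. No libraries were duplicates (median chi-square 7.18 to 31.5 times sampling noise). The tests were checked on simulated data. The 9 members and all lists, written by hand, were chosen with earlier results of these data known. Named are all members, related genes past the threshold in either fit, the highest gene of each list and the nearest profile of each member. Of the list genes, 2 ERM ligands and 2 muscle markers were not analysed here. Promoters are from RefSeq. Alternatives were other pseudocounts, filters, centring, normalizations and limma settings, a block for the replicate number, a covariate for the 2018 mark and each library or replicate left out; voom on the recovered reads and the combinations with the block were chosen after seeing the data.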

Additional observations from a re-analysis of the deposited data

How the results depend on the processing

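Limits were the number of libraries (3 a line), the uncertain replicate number and the depth of the low genes. Without the block, 117 of 11067 genes passed (53 higher, 64 lower). The count was 9 of 26231 with no filter and 63 of 7117 with a filter of 5 RPKM. It was 62 with the 2018 mark as a covariate, 833 with the replicate block and 0 to 373 with 1 library or replicate left out. With the block, 262, 355 and 369 genes passed without replicates 1, 2 and 3, 827 with a pseudocount of 0.1 and 541 of 7117 with a filter of 5 RPKM. There were 812 with median centring, 785 with quantile normalization, 798 without trend and robust settings and 1179 by voom. Of the 9 members, 0 passed without the block and 3 with it, and 0 to 1 with 1 library or replicate left out (1 without replicate 2, Cd44). With the block, 0, 1 and 1 passed without replicates 1, 2 and 3, 3 with a pseudocount of 0.1, 3 with a filter of 5 RPKM, 3 with median centring, 2 with quantile normalization, 2 without trend and robust settings and 3 by voom. The block changed no other member's call. Of the related genes, 3 of 73 passed without the block, 0 of 107 with no filter, 1 with the 2018 mark, 14 with the block and 0 to 6 with 1 library or replicate left out. With the block, 5, 6 and 5 passed without replicates 1, 2 and 3, 14 with a pseudocount of 0.1 and 10 of 57 with a filter of 5 RPKM. There were 14 with median centring or quantile normalization, 12 without trend and robust settings and 17 by voom. For the replicate number, 3 members passed, 4 with a filter of 5 RPKM, median centring, no trend and robust settings or voom, and 0 with no filter. The members nearest 0 changed sign: Nf2 ranged from -0.030 to 0.091, Ezr from -0.064 to 0.18 and Slc9a3r1 from -0.21 to 0.20 with 1 library or replicate left out, and with the block were -0.0015 (Nf2) and -0.033 (Ezr) without replicate 1, and 0.0072 and 0.0032 (Slc9a3r1) without replicates 2 and 3. The cause of these changes was not tested.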
